A study of Homo sapiens with 24 samples.

Results

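A group of genes of lipid storage and lipoprotein handling were examined in 4 cancer cell lines kept in normoxia or hypoxia. They were chosen by symbol from the count tables (ANGPTL4, HILPDA, PLIN2, PLIN3, PNPLA2, LPIN1, LPIN2 and VLDLR), and 8 of 8 symbols were found among the 23106 listed in every library. The lines were A549 (lung cancer), HCT116 (colorectal cancer), PC3 (prostate cancer) and T47D (breast cancer), all grown with serum. A549 and PC3 cells shared a culture medium, and HCT116 and T47D cells each had another. Differences between lines in different media cannot be told apart from effects of the medium. The study names alternative RNA kits, library kits and sequencers without stating which served each line. Any such difference cannot be told apart from differences between lines either. Each line gave 3 polyadenylated RNA libraries from cells in 21% oxygen (normoxia) and 3 from cells in 0.5% oxygen for 16 h (hypoxia), so that 24 libraries fell into 8 groups. No transgene, drug or knockout was part of the groups used here. Each line is 1 cultured tumor cell population without stroma, and the labels do not state that replicates came from separate cultures, so p values measure the spread between these libraries, which may be technical.

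Library totals ranged from 22698584 to 62850747 counts (median 56109795), and 3 counts, the floor used here, corresponded to 0.0477 to 0.132 CPM (counts scaled by effective library size, the level used throughout). Mean correlations of a library with the others of its group were 0.982 to 0.993, lowest for replicate 3 of T47D cells in both oxygen states. Of 8 genes used to check the oxygen labels (ADM, BNIP3, CA9, EGLN3, NDRG1, PDK1, SLC2A1 and VEGFA), 8 were upregulated in A549, HCT116 and T47D cells. In PC3 cells 7 were, and PDK1 was not called. ADM, NDRG1 and SLC2A1 are among the hypoxia-induced genes that the study selected partly on these samples. BNIP3, EGLN3 and PDK1 belong to a further set of induced genes, shared by most of its lines, that also drew on these samples. The direction of the genes in both sets is therefore not independent evidence. Of the tissue markers, T47D cells had 6 of 6 luminal breast markers above 1 CPM, A549 cells had 3 of 8 lung markers (AKR1B10, ALDH1A1 and ALDH3A1), HCT116 cells had 2 of 7 intestinal markers (CDX2 and EPCAM), and PC3 cells had 3 of 6 prostate markers. These lists do not set every line apart, since A549 and T47D cells also had 3 of 6 prostate markers, A549 cells 2 of 7 intestinal markers and PC3 cells 5 of 6 luminal breast markers above 1 CPM. SFTPA1 was at 0 in A549 cells, CDX1 and LGR5 were at 0 in HCT116 cells, and KLK2 and KLK3 were at 0 in PC3 cells. Adipocyte markers summed to at most 2.12 CPM in any library, with LEP at 0 in all 24. Fibroblast markers summed to 10.5 to 55.4 CPM, nearly all of it COL1A1. The 6 endothelial and leukocyte markers summed to 5.34 to 6.36 CPM in normoxic and 16.9 to 45.5 CPM in hypoxic HCT116 cells, mostly CD68, to 21.0 to 31.1 against 37.1 to 40.2 CPM in A549 cells, to 27.5 to 28.6 against 31.3 to 39.2 CPM in PC3 cells and to at most 1.77 CPM in T47D cells. Their part in the results was not tested.

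Cells store surplus fatty acids as triacylglycerol in lipid droplets, which are coated by perilipins such as PLIN2 and PLIN3. Lipins (LPIN1 and LPIN2) are phosphatidate phosphatases that make the diacylglycerol used for triacylglycerol, and PNPLA2 (adipose triglyceride lipase) starts the breakdown of the stored fat. HILPDA is a small droplet protein that inhibits PNPLA2, VLDLR is a receptor that takes up triacylglycerol-rich lipoproteins, and ANGPTL4 is a secreted protein that inhibits lipoprotein lipase outside the cell. Hypoxia-inducible factors (HIF) bind the core sequence ACGTG or GCGTG, and ANGPTL4, HILPDA, PLIN2 and VLDLR are textbook hypoxia-responsive genes. ANGPTL4 is also among the HIF target genes that the study selected partly on these samples, so its direction here is not independent evidence.

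The upstream sequences of 3 genes are shown because their responses below differ most between lines, together with the copies of the HIF core that they hold. Promoters from RefSeq (GRCh38.p14) were matched for 7 of the 8 genes, and HILPDA was not matched. The 250 bases before the annotated start are printed 5′ to 3′ on the strand of the gene, with ACGTG or GCGTG on either strand in capitals (CACGT and CACGC are the same motifs read on the opposite strand). The regions are chr19:8363905-8364154 (plus strand) for ANGPTL4, chr9:19127493-19127742 (minus strand) for PLIN2 and chr9:2621537-2621786 (plus strand) for VLDLR.
ANGPTL4: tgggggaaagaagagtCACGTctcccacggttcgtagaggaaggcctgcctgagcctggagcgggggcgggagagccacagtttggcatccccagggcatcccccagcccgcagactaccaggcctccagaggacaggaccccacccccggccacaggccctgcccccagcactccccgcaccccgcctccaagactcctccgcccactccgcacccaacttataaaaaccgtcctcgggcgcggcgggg
PLIN2: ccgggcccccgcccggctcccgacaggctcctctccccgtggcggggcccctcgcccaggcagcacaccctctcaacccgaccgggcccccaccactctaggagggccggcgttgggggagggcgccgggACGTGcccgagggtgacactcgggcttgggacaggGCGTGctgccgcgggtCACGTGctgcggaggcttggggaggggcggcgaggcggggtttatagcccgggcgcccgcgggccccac
VLDLR: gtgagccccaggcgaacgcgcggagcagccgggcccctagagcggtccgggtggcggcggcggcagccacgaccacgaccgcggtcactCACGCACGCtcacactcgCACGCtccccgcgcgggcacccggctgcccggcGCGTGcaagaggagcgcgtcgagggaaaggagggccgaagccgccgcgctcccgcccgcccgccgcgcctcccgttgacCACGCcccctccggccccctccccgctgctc
The ANGPTL4 window held 1 match, whose first base lay at -234 from the start. The PLIN2 window held 4, at -120, -85, -69 and -68, of which the last 2 overlap in the palindrome CACGTG and lie on opposite strands. The VLDLR window held 5 matches to GCGTG and 0 to ACGTG, and 2 of those capitals run together. Of 35116 promoter windows of this length over all genes, 43.2% held at least 1 match of either motif (18.5% ACGTG and 32.2% GCGTG), 19.4% held at least 2 and 3.22% held at least 4. The PLIN3 window held 3 matches and the PNPLA2 window 0, and 6 of 10 windows of the 7 genes held at least 1. A match is a description of the letters in this window only.

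Hypoxia raised 4 to 7 of the 8 genes in each line, and none was called lower in any line. A gene was called when edgeR's quasi-likelihood test gave a Benjamini-Hochberg adjusted p below 0.05, over all genes tested, and its fold change exceeded 1.2. In A549 cells 7 of 8 genes were upregulated, against 17.6% of the 13897 genes tested called higher and 17.8% called lower. In HCT116 cells 6 of 7 tested genes were upregulated, against 23.3% of 13614 genes called higher and 27.0% lower. In PC3 cells 6 of 8 were upregulated, against 16.6% of 13466 genes called higher and 15.7% lower. In the fit of all 24 libraries that was used to compare lines, 4 of these 6 PC3 calls were lost, namely PLIN3 (adjusted p = 0.156), LPIN1 (0.0661), LPIN2 (0.0961) and PNPLA2 (0.0889). That fit also lost the call of PLIN3 in A549 cells (0.209) and gained that of PNPLA2 in T47D cells (0.0492). In T47D cells 4 of 7 tested genes were upregulated, against 6.55% of 14085 genes called higher and 6.69% lower. The median log2 fold change of the tested members was 0.64, 0.89, 0.43 and 0.90 in A549, HCT116, PC3 and T47D cells, beside medians of -0.01, -0.03, -0.01 and -0.01 over all genes tested. Scaling to library totals moved the median of all genes to -0.13 in A549 and -0.12 in T47D cells, where 1778 genes were then called higher and 3461 lower (2452 and 2476 with TMM scaling) and 666 higher and 1412 lower (922 and 942). The T47D background also rested on single libraries. Without replicate 3 of both oxygen states 2918 genes were called higher and 3140 lower, with 4 members still called, and without normoxia replicate 1 these were 180 and 19, with 2 members called.

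**Figure D1:**
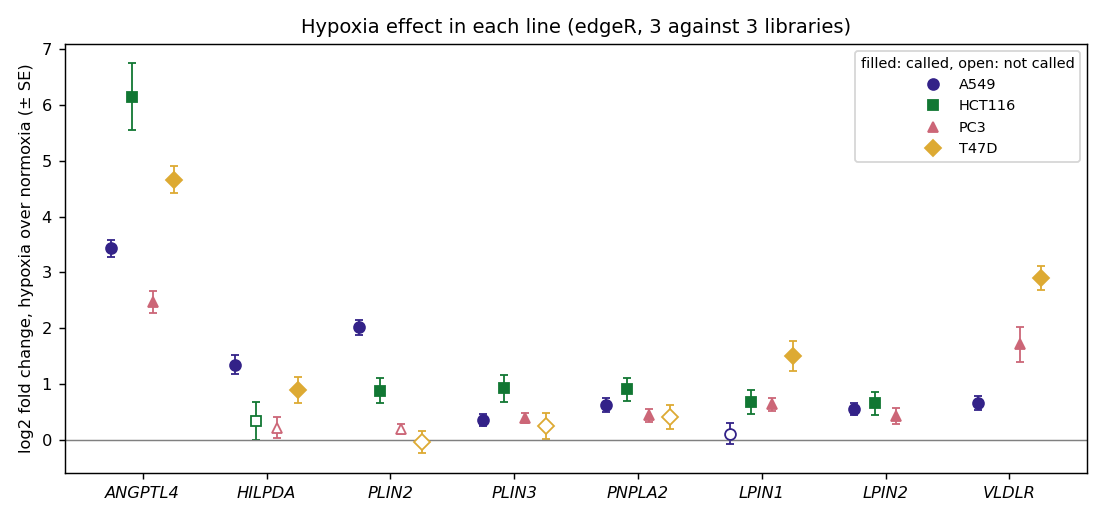
Log2 fold change in hypoxia over normoxia (vertical axis) for each gene and line, with its standard error, from edgeR fits of 3 against 3 libraries. Filled symbols passed the call and open ones did not. ANGPTL4 lies between 2.47 and 6.14 in the 4 lines, PLIN2 ranges from 2.01 in A549 to -0.04 in T47D cells, and LPIN2 in T47D and VLDLR in HCT116 cells have no point.

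ANGPTL4 was the most strongly induced of the members in each line. In A549 cells its TMM-scaled CPM was 29.2, 43.6 and 32.9 in normoxia and 377, 389 and 376 in hypoxia, a log2 fold change of 3.43 ± 0.15 (SE; edgeR adjusted p = 5.76e-08). The normoxic and hypoxic libraries did not overlap, and the 3 hypoxic libraries were within 1.03-fold of each other. In T47D cells the levels were 2.92, 3.95 and 4.95 CPM in normoxia and 103, 115 and 98.3 CPM in hypoxia (4.66 ± 0.24, adjusted p = 2.56e-07).

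HCT116 cells showed the widest spread of ANGPTL4. Its level was 2.48, 3.40 and 6.54 CPM in normoxia and 97.6, 603 and 254 CPM in hypoxia, so the hypoxic libraries differed 6.18-fold among themselves while all lay above the normoxic ones. The log2 fold change was 6.14 ± 0.59 (edgeR adjusted p = 3.26e-05), and 5.32 ± 0.39 without hypoxia replicate 2 (adjusted p = 7.80e-08). Hypoxia replicate 2 was the highest of its group for each of the 7 members detected in HCT116 cells. In PC3 cells the induction was smallest, from 3.48, 3.83 and 3.61 CPM to 16.4, 18.6 and 27.7 CPM (2.47 ± 0.20, adjusted p = 0.000134).

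The order of mean ANGPTL4 levels was A549, HCT116, T47D and PC3 in both oxygen states, but the pairs of lines that were separated differed. The normoxic mean was 35.2 ± 7.51 CPM (SD, n = 3) in A549 cells against 4.14 ± 2.13 in HCT116, 3.94 ± 1.01 in T47D and 3.64 ± 0.18 in PC3 cells. In one edgeR fit of all 24 libraries, A549 cells differed from each of the other lines (adjusted p at most 5.90e-07), and no difference among HCT116, PC3 and T47D cells was detected (0.718 to 0.898). In hypoxia the means were 381 ± 7.14 CPM in A549, 318 ± 259 in HCT116, 106 ± 8.82 in T47D and 20.9 ± 5.96 in PC3 cells. A549 and HCT116 cells were then not distinguishable (adjusted p = 0.576), whereas HCT116 exceeded T47D cells by 1.59 ± 0.39 on the log2 scale (adjusted p = 0.000781) and T47D exceeded PC3 cells by 2.34 ± 0.40 (1.29e-05). HCT116 hypoxia replicate 1 (97.6 CPM) nevertheless lay below all 3 hypoxic T47D libraries. Without HCT116 hypoxia replicate 2, an alternative chosen after seeing the data, the difference from T47D cells was 0.73 ± 0.32 (adjusted p = 0.0477), and A549 cells were then above HCT116 cells by 1.12 ± 0.33 (0.00635).

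**Figure D2:**
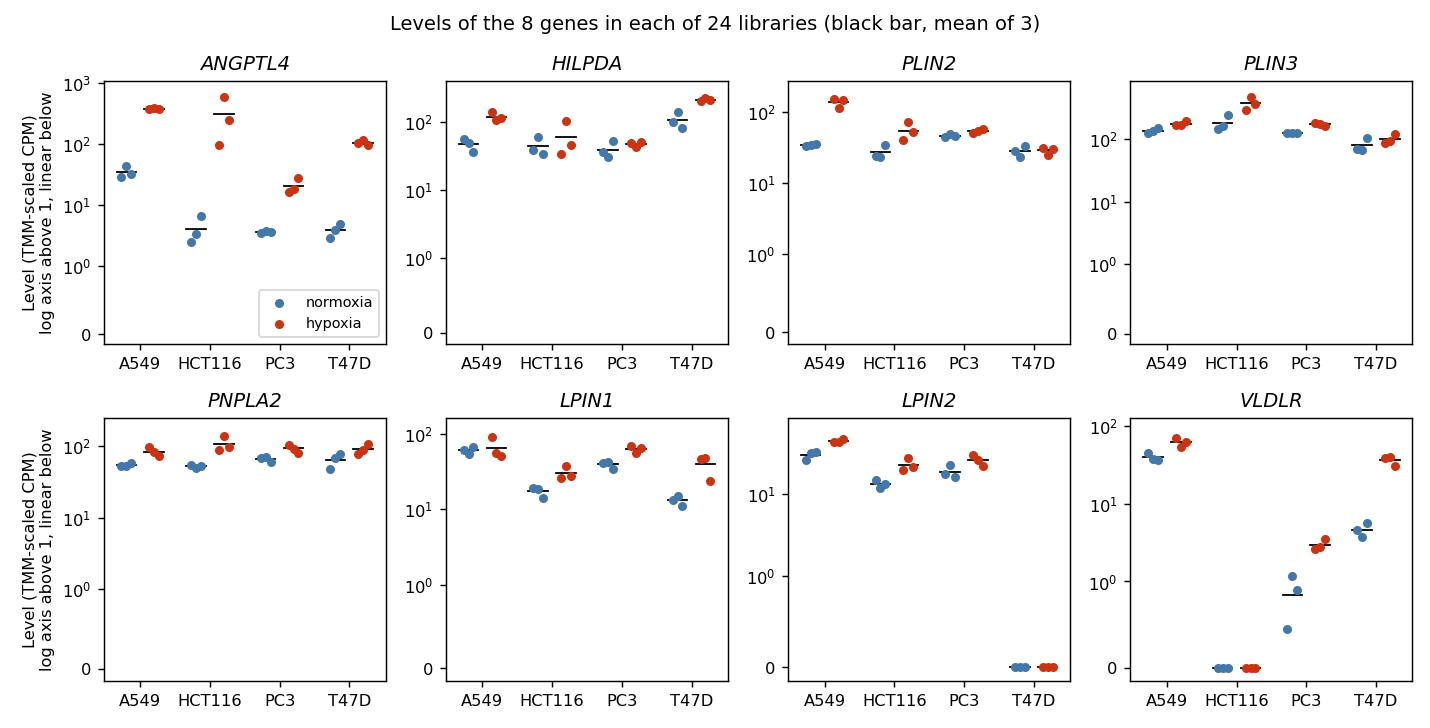
Level of each gene (vertical axis, TMM-scaled CPM, logarithmic above 1 and linear below) in the 3 normoxic (blue) and 3 hypoxic (red) libraries of each line, with group means as black bars. ANGPTL4 rises in all 4 lines, PLIN2 separates most in A549 cells, and LPIN2 in T47D and VLDLR in HCT116 cells lie at 0 in all 6 libraries.

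HILPDA, the inhibitor of PNPLA2, was called in A549 and T47D cells. In A549 cells it rose from 56.3, 49.2 and 35.6 CPM to 141, 106 and 113 CPM (log2 fold change 1.35 ± 0.17, edgeR adjusted p = 0.000176). In T47D cells it was 101, 142 and 81.0 CPM in normoxia and 203, 224 and 214 CPM in hypoxia (0.90 ± 0.24, adjusted p = 0.0281). The groups did not overlap in either line, but the T47D call was lost without hypoxia replicate 1 (adjusted p = 0.0603), hypoxia replicate 2 (0.0609) or normoxia replicate 1 (0.166). T47D cells had the highest HILPDA level in both states, above A549 cells by 1.198 ± 0.30 (log2) in normoxia (adjusted p = 0.000945) and by 0.83 ± 0.29 in hypoxia (0.0152).

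In the other lines HILPDA groups overlapped. HCT116 cells had 38.2, 59.3 and 33.7 CPM in normoxia and 34.1, 102 and 46.4 CPM in hypoxia (0.34 ± 0.34, edgeR adjusted p = 0.423), where the high value belonged to hypoxia replicate 2 and its omission gave -0.23 (adjusted p = 0.508). PC3 cells had 35.7, 30.2 and 51.8 CPM in normoxia and 49.9, 42.7 and 50.4 CPM in hypoxia (0.22 ± 0.19, adjusted p = 0.380). The highest PC3 normoxic library was replicate 3, without which the difference was 0.51 (adjusted p = 0.0101). HILPDA exons overlap other annotated transcripts on its own strand, so reads there could be lost or shared in counting.

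PLIN2, the perilipin typical of cells outside fat tissue, responded very unequally. In A549 cells it rose from 33.1, 34.4 and 35.5 CPM to 154, 114 and 149.9 CPM (log2 fold change 2.01 ± 0.13, edgeR adjusted p = 1.01e-06). In HCT116 cells it rose from 24.5, 23.6 and 34.3 CPM to 40.6, 72.4 and 52.0 CPM (0.89 ± 0.23, adjusted p = 0.00568). The groups did not overlap in these 2 lines.

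PC3 and T47D cells gave no PLIN2 call. The PC3 levels were 44.4, 49.1 and 45.6 CPM in normoxia and 51.3, 55.3 and 58.1 CPM in hypoxia, without overlap but with a log2 difference of only 0.19 ± 0.09 (edgeR adjusted p = 0.123). The T47D levels overlapped, at 28.2, 23.1 and 33.8 CPM against 31.7, 25.1 and 30.5 CPM (-0.04 ± 0.20, adjusted p = 0.918), and the sign depended on the libraries used. PC3 cells had the highest normoxic PLIN2 level (46.4 ± 2.46 CPM, adjusted p = 0.0468 against A549 cells), and A549 cells had the highest hypoxic one (139 ± 22.2 CPM, 1.34 ± 0.19 above HCT116 cells on the log2 scale, adjusted p = 1.07e-06).

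PLIN3, a perilipin present in most tissues, was upregulated in 3 lines, by 0.36 to 0.92 on the log2 scale. HCT116 cells rose from 149, 162 and 243 CPM to 297, 476 and 362 CPM (log2 fold change 0.92 ± 0.24, edgeR adjusted p = 0.00578). PC3 cells rose from 127, 128 and 128 CPM to 186, 173 and 164 CPM (0.40 ± 0.09, adjusted p = 0.00999). A549 cells rose from 128, 137 and 151 CPM to 169, 171 and 197 CPM (0.36 ± 0.11, adjusted p = 0.0241), a call that was lost with any of 4 libraries left out, namely hypoxia replicate 2 (0.0552), hypoxia replicate 3 (0.0604), normoxia replicate 1 (0.121) and normoxia replicate 2 (0.0785). T47D cells had 69.8, 67.6 and 106 CPM in normoxia and 87.3, 94.4 and 123 CPM in hypoxia, which overlapped (0.25 ± 0.23, adjusted p = 0.476). In the edgeR fit of all 24 libraries PLIN3 was called in HCT116 cells only (adjusted p = 0.209 in A549 and 0.156 in PC3 cells). An opposite-strand gene without a symbol overlaps a PLIN3 exon by 432 bases, and the strand setting of the counting was not given in the sources used here.

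PNPLA2, the first lipase of droplet breakdown, had like levels in the 4 lines. Its normoxic means were 54.5 ± 3.52, 52.9 ± 2.81, 66.3 ± 5.33 and 64.7 ± 15.1 CPM in A549, HCT116, PC3 and T47D cells, and it was the only member whose normoxic level did not pass the test between lines (adjusted p = 0.188). For the other 7 members it passed, as it did for 93.8% of the 16089 genes tested. The adjusted p of PNPLA2 was 0.0134 when libraries were scaled to their totals.

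PNPLA2 was upregulated in 3 lines. It rose from 55.2, 49.8 and 53.7 CPM to 88.5, 139 and 96.7 CPM in HCT116 cells (log2 fold change 0.90 ± 0.20, edgeR adjusted p = 0.00268) and from 52.7, 52.3 and 58.5 CPM to 96.4, 83.8 and 72.4 CPM in A549 cells (0.62 ± 0.12, adjusted p = 0.00281). In PC3 cells it rose from 68.6, 70.04 and 60.2 CPM to 106, 92.7 and 81.2 CPM (0.44 ± 0.11, adjusted p = 0.0157), and this call was lost without hypoxia replicate 1 (0.0632) or hypoxia replicate 2 (0.0540). In T47D cells 48.1, 68.2 and 77.7 CPM stood against 78.7, 87.2 and 106 CPM, just without overlap (0.41 ± 0.22, adjusted p = 0.217).

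The lipins differed in where they responded. LPIN1 was upregulated most in T47D cells, from 13.4, 15.3 and 11.02 CPM to 47.3, 48.6 and 23.96 CPM (log2 fold change 1.503 ± 0.27, edgeR adjusted p = 0.00476). The lowest hypoxic library was replicate 3, and the call was lost without normoxia replicate 1 (adjusted p = 0.0659). PC3 cells rose from 41.5, 43.2 and 34.2 CPM to 69.9, 55.9 and 65.2 CPM (0.64 ± 0.11, adjusted p = 0.00466). HCT116 cells rose from 19.3, 18.5 and 14.2 CPM to 26.1, 37.1 and 28.01 CPM (0.68 ± 0.21, adjusted p = 0.0177).

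A549 cells had the highest normoxic LPIN1 level and no call. Their levels were 60.7, 54.9 and 67.4 CPM in normoxia and 91.5, 55.2 and 51.9 CPM in hypoxia (log2 fold change 0.11 ± 0.19, edgeR adjusted p = 0.668), and the sign turned to -0.18 without hypoxia replicate 1. The order of normoxic LPIN1 levels was A549 (61.0 ± 6.26 CPM), PC3 (39.6 ± 4.77), HCT116 (17.3 ± 2.74) and T47D cells (13.2 ± 2.13), in which only HCT116 and T47D cells were not separated (adjusted p = 0.141). In hypoxia A549 and PC3 cells were not separated either (66.2 ± 22.0 and 63.7 ± 7.11 CPM, adjusted p = 0.852).

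LPIN2 was upregulated in the 3 lines with counts for it, and its responses were not called different between them (below). A549 cells rose from 26.6, 32.1 and 32.6 CPM to 43.1, 43.9 and 47.8 CPM (log2 fold change 0.56 ± 0.11, edgeR adjusted p = 0.00334). HCT116 cells rose from 15.0, 11.9 and 13.4 CPM to 20.02, 27.6 and 21.5 CPM (0.65 ± 0.20, adjusted p = 0.0164). Without hypoxia replicate 2 of HCT116 cells the call was lost for LPIN2 (0.0733) and for LPIN1 (0.0709). PC3 cells had 17.5, 22.5 and 16.2 CPM in normoxia and 30.3, 25.9 and 22.1 CPM in hypoxia, which overlapped (0.43 ± 0.15, adjusted p = 0.0475), and the call was lost without hypoxia replicate 1 (0.170), hypoxia replicate 2 (0.112), normoxia replicate 1 (0.139) or normoxia replicate 3 (0.104).

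VLDLR, the lipoprotein receptor, had the largest induction after ANGPTL4 in T47D and PC3 cells and a smaller one in A549 cells. In T47D cells it rose from 4.57, 3.75 and 5.56 CPM to 39.1, 39.6 and 30.6 CPM (log2 fold change 2.90 ± 0.22, edgeR adjusted p = 5.94e-06). In PC3 cells it rose from 0.456, 1.18 and 0.896 CPM to 2.65, 2.79 and 3.49 CPM (1.71 ± 0.31, adjusted p = 0.00479). In A549 cells, where it was already at 44.1, 37.6 and 36.0 CPM, it reached 70.6, 53.7 and 62.7 CPM (0.66 ± 0.13, adjusted p = 0.00242). The groups did not overlap in these 3 lines, and every neighbouring pair in the order A549, T47D and PC3 differed in both oxygen states. The A549 to T47D difference was 3.08 ± 0.23 on the log2 scale in normoxia and 0.77 ± 0.21 in hypoxia (adjusted p = 0.00234). Opposite-strand genes overlap a VLDLR exon block by up to 945 bases.

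A pair of members had 0 counts in every library of 1 line. VLDLR (GRCh37 chr9:2621182-2660056, plus strand) had 0 counts in all 6 HCT116 libraries. Taking 3 counts per library as the floor, mean VLDLR was about 662-fold that floor in normoxic and 488-fold in hypoxic A549 cells. It was about 78.1-fold and 285-fold the floor in T47D cells, and about 14.2-fold and 23.3-fold in PC3 cells. These ratios are approximate, because the floor was scaled to library totals and the levels to effective library size. LPIN2 (chr18:2885294-3013142, minus strand) had 0 counts in all 6 T47D libraries. On the same approximate scale its means in the other lines were about 164-fold to 371-fold the floor in normoxia and 442-fold to 862-fold in hypoxia. Counting error is the only error these floors cover.

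Neighbouring genes, examined after these zeros were seen, differed between the 2 loci. Beside LPIN2, EMILIN2 (an extracellular matrix gene whose span overlaps that of LPIN2) also had 0 counts over the 6 T47D libraries, against 1530 to 3189 in the other lines. On either side of this pair, SMCHD1 had 11267 counts and MYL12A had 52200 in T47D cells, and MYOM1 had 3 counts there and 5 in PC3 cells. Beside VLDLR, SMARCA2 had 2836 counts and RFX3 had 1315 over the 6 HCT116 libraries. Genes at 0 in all 6 libraries of 1 line and above 5 CPM on average in each of the others numbered 6 for A549, 23 for HCT116, 24 for PC3 and 15 for T47D cells. The cause of the zeros was not tested, and in bulk RNA fewer cells with a transcript and less of it per cell cannot be told apart.

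Whether hypoxia acted unequally across lines was tested as the interaction of line and oxygen in one edgeR fit of all 24 libraries. It was called for 4 of 8 members, ANGPTL4 (adjusted p = 0.000525), PLIN2 (5.89e-05), LPIN1 (0.0178) and VLDLR (0.000319), against 18.3% of 16089 genes. It was not called for HILPDA (0.169), PLIN3 (0.155), PNPLA2 (0.265) or LPIN2 (0.773). HILPDA was called once HCT116 hypoxia replicate 2 was left out (0.0197), and also in the fit blocked on replicate number (0.0207). LPIN1 was not called without HCT116 cells (0.0514), without T47D cells (0.126) or without replicate 1 of every group (0.0836), and neither LPIN1 (0.295) nor ANGPTL4 (0.0974) was called without replicate 2. PLIN3 was called without replicate 3 (0.0399). Since VLDLR has no counts in HCT116 cells and LPIN2 none in T47D cells, both were tested again over 3 lines. VLDLR was called among A549, PC3 and T47D cells (adjusted p = 0.000223, against 4.65% of 15746 genes) and LPIN2 was not called among A549, HCT116 and PC3 cells (0.607, against 25.4% of 15410 genes).

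Pairs of lines showed where the responses parted. The ANGPTL4 response was larger in HCT116 than in PC3 cells by 3.74 ± 0.58 (log2; edgeR adjusted p = 0.000282, against 14.9% of genes called for that pair), larger in HCT116 than in A549 cells by 2.82 ± 0.55 (0.00275, against 16.7%), and larger in T47D than in PC3 cells by 2.22 ± 0.57 (0.0363, against 2.25%). The difference of 1.52 ± 0.56 between HCT116 and T47D cells was not called (0.0792). Without HCT116 hypoxia replicate 2 the first 2 differences were 2.88 ± 0.46 (0.000634) and 1.96 ± 0.44 (0.00971). The PLIN2 response of A549 cells exceeded that of T47D cells by 1.98 ± 0.26 (0.000103, against 2.11%), that of PC3 cells by 1.78 ± 0.26 (0.000477, against 0.758%) and that of HCT116 cells by 1.02 ± 0.26 (0.0123). PLIN2 also responded more in HCT116 than in T47D cells, by 0.96 ± 0.26 (0.0252, against 9.07%), but by 0.71 ± 0.25 without HCT116 hypoxia replicate 2, which was not called (0.0817). For LPIN1 and VLDLR the called pair was T47D over A549 cells, by 1.48 ± 0.33 (0.0138) and 2.31 ± 0.30 (0.000139). The VLDLR difference between T47D and PC3 cells, 1.24 ± 0.33, was not called (0.0553).

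Level differences between lines are frequent among all genes, which sets the scale for the orders above. In normoxia 65.0% of genes differed between A549 and HCT116, 60.5% between A549 and PC3, 67.7% between A549 and T47D, 66.0% between HCT116 and PC3, 69.0% between HCT116 and T47D, and 68.1% between PC3 and T47D cells. In hypoxia these shares were, in that order, 60.1%, 62.7%, 67.5%, 60.6%, 68% and 68.8%.

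To compare genes with each other, CPM was divided by the summed length of annotated exons (union of GENCODE 44 exons on GRCh37). On this per-kilobase scale PLIN3 had the highest normoxic level in A549 (50.6 ± 4.15 CPM per kb), HCT116 (67.5 ± 18.6) and PC3 cells (46.6 ± 0.36), and HILPDA in T47D cells (52.1 ± 14.9). In hypoxia ANGPTL4 moved from the third place to the first in A549 cells (154 ± 2.89 CPM per kb), from the sixth to the second in HCT116 cells (129 ± 104) and from the fifth to the second in T47D cells (42.6 ± 3.56), but only from the seventh to the fifth in PC3 cells (8.44 ± 2.41). Some of these places depend on the length used. By the longest transcript, ANGPTL4 was in the fourth place in normoxic A549, the first in hypoxic HCT116, the sixth in normoxic T47D and the sixth in hypoxic PC3 cells. VLDLR was lowest of the expressed members in A549, PC3 and T47D cells, at 2.21 ± 0.31 CPM per kb even in hypoxic T47D cells.

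The perilipin ratio moved most in A549 cells. There the ratio of PLIN2 to PLIN3 per kilobase was 0.142, 0.137 and 0.129 in normoxia and 0.499, 0.365 and 0.417 in hypoxia. In HCT116 cells the mean ratio was 0.0822 ± 0.0067 in normoxia and 0.0787 ± 0.0043 in hypoxia, and both perilipins were called higher there. PC3 cells had mean ratios of 0.199 and 0.173, and T47D cells 0.194 and 0.160, with overlapping libraries. Normoxic and hypoxic libraries were also matched by replicate number, which the labels do not say marks a pair. Within same-numbered libraries the ratio of PLIN2 to PLIN3 was lower in hypoxia in 3 of 3 pairs in both PC3 and T47D cells. It was higher in 3 of 3 pairs in A549 cells and in 2 of 3 in HCT116 cells. These ratios depend on the exon length used. With the longest transcript in place of the union of exons, the A549 means were 0.292 in normoxia and 0.918 in hypoxia.

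Further ratios set an inhibitor beside its enzyme and one lipin beside the other. HILPDA to PNPLA2 was highest in T47D cells, at 3.90, 3.84 and 1.93 in normoxia and 4.78, 4.76 and 3.73 in hypoxia, and these groups overlapped. Between same-numbered libraries this ratio was higher in hypoxia in 3 of 3 pairs in both T47D and A549 cells. It was lower in 3 of 3 pairs in HCT116 cells and in 2 of 3 in PC3 cells. It was higher in hypoxia without overlap in A549 cells, with means of 1.62 ± 0.44 and 2.65 ± 0.28, and stood at 1.55 ± 0.57 and 0.988 ± 0.34 in HCT116 cells and 1.12 ± 0.42 and 0.958 ± 0.16 in PC3 cells. LPIN1 to LPIN2 lay between 0.658 and 1.83 in all libraries of A549, HCT116 and PC3 cells, with the oxygen states overlapping in each line. No test was run on ratios.

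**Figure D3:**
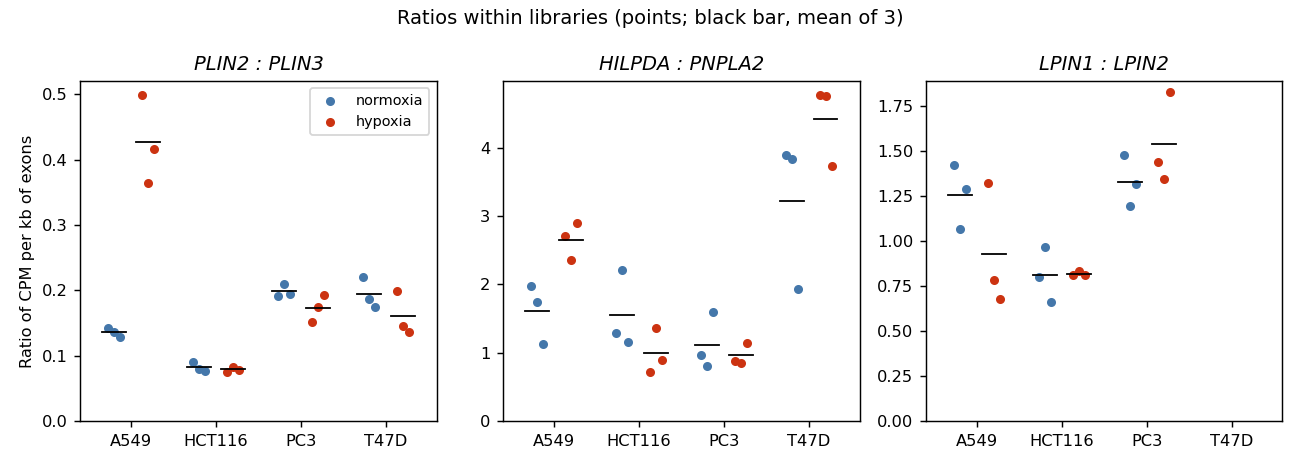
Ratio of CPM per kilobase of exons (vertical axis) for 3 gene pairs in each normoxic (blue) and hypoxic (red) library, with group means as black bars. PLIN2 to PLIN3 moves from a mean of 0.136 to 0.427 in A549 cells, HILPDA to PNPLA2 is highest in T47D cells, and LPIN1 to LPIN2 has no value in T47D cells.

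Other genes of the pathway were examined as lists. Among 16 further droplet coat and assembly genes, none were called higher and 6 of 12 tested were called lower in HCT116 cells (AUP1, HSD17B11, HSD17B13, METTL7A, PLIN4 and PLIN5), with a median log2 fold change of -0.71, against 27.0% of all genes called lower, 23.3% called higher and a median of -0.03. In A549 cells 1 of 11 was called higher and 1 lower, in PC3 cells 2 of 12 were called higher (METTL7A and PLIN4), and in T47D cells 1 of 10 was called lower (PLIN5). No gene of this list was called in the same direction in 3 lines.

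Of 22 genes of triacylglycerol and sterol ester synthesis, 4 of 16 tested were called higher and 2 lower in A549, 4 and 3 of 18 in HCT116, 3 and 2 of 17 in PC3, and 4 and 0 of 15 in T47D cells. Over all genes tested, 17.6%, 23.3%, 16.6% and 6.55% were called higher and 17.8%, 27.0%, 15.7% and 6.69% lower in these lines, and the shares of this list and of the lists that follow are to be read against them. AGPAT2, an acyltransferase of the step before the lipins, rose in all 4 lines, from 71.4 to 123 CPM in A549 cells (log2 fold change 0.78 ± 0.10, edgeR adjusted p = 0.000223) and from 26.9 to 61.3 CPM in T47D cells (1.12 ± 0.21, 0.00604). AGPAT4 also rose in all 4, by 0.65 to 1.46, and AGPAT3 in 3 lines. GPAM, which catalyses the first step of glycerolipid synthesis, fell in A549 (-0.76 ± 0.12, 0.000811), HCT116 (-1.04 ± 0.25, 0.00433) and PC3 cells (-0.68 ± 0.11, 0.00310), and its T47D value was -0.42 ± 0.20 (0.188).

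Of 13 further lipolysis genes, 3 of 13 were called higher and 2 lower in A549, 2 and 5 of 11 in HCT116, 2 and 1 of 10 in PC3, and 1 and 1 of 11 in T47D cells. MGLL, which releases the last fatty acid from monoacylglycerol, rose in all 4 lines, by 0.89 ± 0.12 in A549, 1.62 ± 0.26 in HCT116, 0.56 ± 0.09 in PC3 and 0.63 ± 0.19 in T47D cells (edgeR adjusted p = 0.000247, 0.000302, 0.00387 and 0.0451). ABHD5, the coactivator of PNPLA2, fell in A549 (-0.42 ± 0.11, 0.0120), HCT116 (-0.99 ± 0.21, 0.00161) and PC3 cells (-0.32 ± 0.11, 0.0488), and its T47D value was -0.47 ± 0.19 (0.115). PNPLA6, a phospholipase related to PNPLA2, rose in A549, HCT116 and PC3 cells by 0.49 to 0.68.

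Of 26 genes of the lipoprotein lipase axis and lipoprotein receptors, 5 of 12 tested were called higher and 2 lower in A549, 5 and 1 of 13 in HCT116, 6 and 1 of 15 in PC3, and 4 and 0 of 13 in T47D cells. LRP1, a receptor of the family that includes VLDLR, rose in all 4 lines, by 2.76 ± 0.21 in A549 (edgeR adjusted p = 4.32e-06), 1.14 ± 0.25 in HCT116, 1.45 ± 0.13 in PC3 and 2.39 ± 0.39 in T47D cells. SCARB1, a receptor for high-density lipoprotein, rose from 116 to 389.7 CPM in T47D cells (1.67 ± 0.23, 0.000893) and in A549 and HCT116 cells. Its PC3 value was 0.31 ± 0.11, which was not called (0.0564). FABP5, a fatty acid binding protein, fell in A549, HCT116 and PC3 cells, with log2 fold changes of -0.69, -1.37 and -0.60. It was not among the genes tested in T47D cells.

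Of 10 regulators of these genes, 5 of 9 tested were called higher and 1 lower in A549, 6 and 0 in HCT116, 4 and 0 in PC3, and 2 and 1 in T47D cells. RXRA, the partner of the PPAR nuclear receptors, rose in all 4 lines by 0.59 to 1.19. PPARA and PPARD, fatty acid sensors that switch on ANGPTL4 and PLIN2 in many tissues, and EPAS1 (HIF-2α) rose in A549, HCT116 and PC3 cells, and their T47D values were -0.27 ± 0.31, -0.02 ± 0.22 and -0.02 ± 0.25. SREBF1, which switches on fatty acid synthesis, rose in A549, HCT116 and T47D cells by 0.72 to 0.99, and HIF1A was called lower in A549 and T47D cells.

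**Figure D4:**
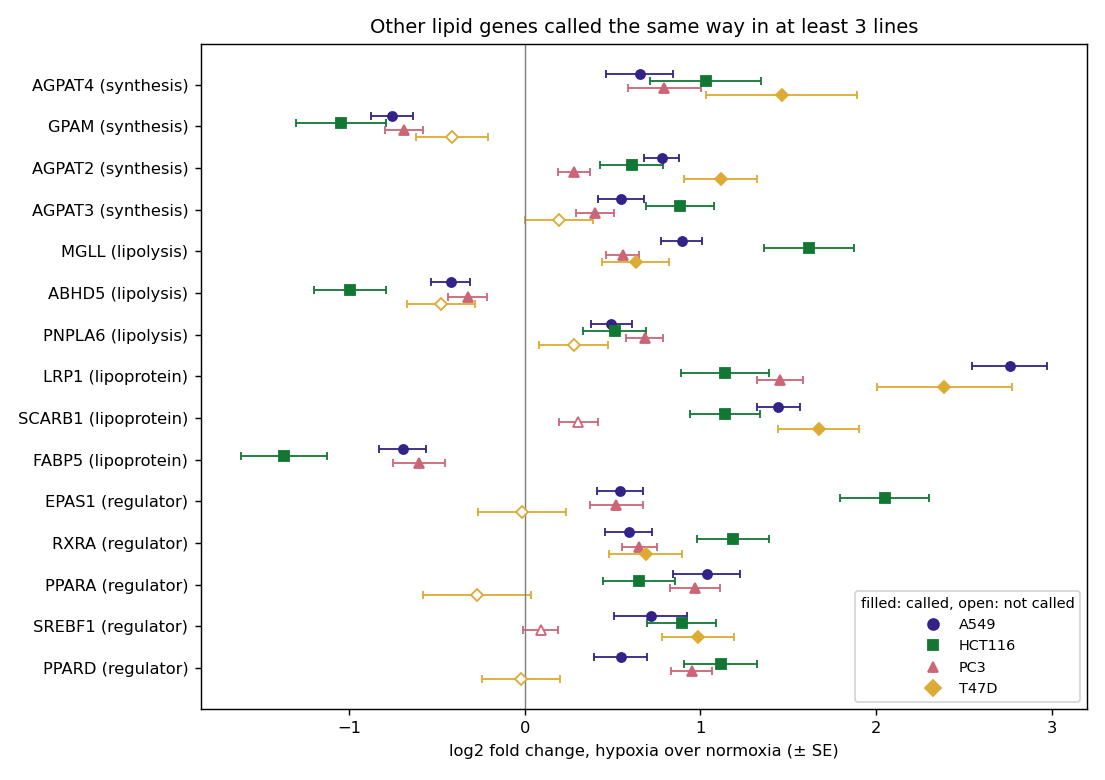
Log2 fold change in hypoxia over normoxia (horizontal axis, with its standard error) for 15 pathway genes called in the same direction in at least 3 lines, at most 5 a list. Filled symbols passed the call and open ones did not. LRP1 lies between 1.14 and 2.76, and GPAM, ABHD5 and FABP5 lie below 0 in every line tested.

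Expression patterns were compared after removing each line's mean, over 24 libraries and 10882 genes tested in all 4 lines. The libraries share the oxygen contrast, so these values are descriptions. ANGPTL4 was most like PFKFB4 (Pearson's r = 0.985), KCTD11 (0.983) and KDM3A (0.983). Like ANGPTL4, these genes are all among the HIF target genes that the study selected partly on these samples. Their likeness is therefore not independent evidence. HILPDA was most like SLC27A1 (0.901), FAM162A (0.899) and WSB1 (0.880). PLIN2 was most like IDH2 (0.933), PDGFC (0.926) and PPP1R3B (0.915), and VLDLR was most like PGF (0.874), APLN (0.869) and RGAG4 (0.861). Among the 28 pairs of members the line-centred r ran from 0.230 (PLIN2 and LPIN1) to 0.889 (ANGPTL4 and PNPLA2), with a median of 0.642. Without centring, the median was 0.394 and 4 pairs were negative, the lowest being HILPDA and LPIN2 (-0.660).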

How the data were processed

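The authors trimmed reads with Trim Galore 0.3.3, aligned them to GRCh37 with HISAT2, removed fragments without a unique position with Picard and counted the rest on UCSC genes with HTSeq (intersection-strict). The deposited values are raw counts per gene symbol. Fits here used edgeR 4.0.16 in R 4.3.3 (filterByExpr, TMM, quasi-likelihood test, Benjamini-Hochberg over all genes tested), one per line, and one of all 24 libraries for differences between lines, called at an adjusted p under 0.05. Errors of fold changes are the absolute log2 fold change over the square root of F. Log2 CPM used a prior count of 2. DESeq2 1.42.0 and the other alternatives are given in the closing section. The fits were tested on simulated counts. The members and lists were chosen with earlier results of these data known. List genes are named if called alike in at least 3 lines, at most 5 a list by mean absolute log2 fold change, and a few are not reported here. The most alike genes are the 3 with the highest centred r among genes with mean log2 CPM over 1. The labels give replicate numbers but state no pairing. Deviations of same-numbered normoxic and hypoxic libraries from their group means correlated at 0.154, 0.325 and 0.302 in T47D cells. They correlated at 0.0826 to 0.207 in A549, 0.0707 to 0.288 in HCT116 and 0.0785 to 0.0815 in PC3 cells. In T47D and PC3 cells each value exceeded those of the same normoxic library with hypoxic libraries of another number. Replicate 3 of A549 (0.0826 against 0.0913) and of HCT116 cells (0.0707 against 0.0791) did not.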

Additional observations from a re-analysis of the deposited data

Results flagged for a closer look

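The response to hypoxia differed between lines for 4 members, by the test of the difference itself. The largest gap was that of ANGPTL4, whose log2 effect in HCT116 cells exceeded that in PC3 cells by 3.74. For PLIN2 the effect in A549 cells exceeded that in T47D cells by 1.98. For LPIN1 the effect in T47D cells exceeded that in A549 cells by 1.48, and for VLDLR by 2.31. Groups of 3 libraries were not screened for outlying samples.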

How the results depend on the processing

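Across the alternatives, 415 of 457 values of the 30 fold changes kept their direction and their side of the threshold, 34 kept the direction and lost the call, 2 gained it and 6 changed sign. The sign changes concerned uncalled values: LPIN1 in A549 cells and HILPDA in HCT116 cells with 1 library left out (leave-one-out ranges -0.18 to 0.27 and -0.23 to 0.71), and PLIN2 in T47D cells (-0.16 to 0.078 with 1 library left out, 0.038 in 1 fit of all 24 libraries, 0.049 without both replicate 3 libraries, an alternative chosen after seeing the data). In PC3 cells the members called higher fell from 6 to 2 in 1 fit of all 24 libraries and to 3 at a fold change over 1.5. With 1 library left out, the members called numbered 6 to 7 in A549, 4 to 6 in HCT116, 4 to 6 in PC3 and 2 to 4 in T47D cells. With replicate 1, 2 or 3 left out of every group, 2 to 5 members had a called difference of the hypoxia effect (4 with all libraries), and 636, 165 and 2478 of all genes did, against 2940. Genes called higher and lower in PC3 cells fell from 2237 and 2109 to 867 and 425 in 1 fit of all 24 libraries, while those in T47D cells rose from 922 and 942 to 2231 and 1599. DESeq2, RLE size factors and the filters on low counts changed no call of a member. Scaling to library totals lost the calls of PLIN3 in A549 (edgeR adjusted p = 0.0756) and of LPIN2 in PC3 cells (0.0607). Blocked on replicate number (a replicate block), the members called were 7, 6, 6 and 4 in A549, HCT116, PC3 and T47D cells, as without it. The block added HILPDA to the called differences between lines (5 members). The samples share a number, and the labels do not say that it marks a pair. Depth limits the 0 counts of VLDLR and LPIN2 to a floor of 3 counts per library.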
